A study of Mus musculus with 7 samples.

Results

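The 10 genes described here are the cyclin-dependent kinase (CDK) inhibitors and the p53 axis, a list of Cdkn1a, Cdkn1b, Cdkn1c, Cdkn2a, Cdkn2b, Cdkn2c, Cdkn2d, Trp53, Mdm2 and Ccng1 chosen by gene symbol, and all 10 were found among the 23930 genes of the deposited table. They were measured in bulk RNA from sorted Pax7-GFP cells of mouse hind leg muscle, in 7 libraries, NC1 to NC3 being the 3 of normocapnia and HC1 to HC4 the 4 of hypercapnia. All animals carried an inducible Pax7-GFP reporter, on a background read here as C57BL/6 although the genotype labels number it differently from sample to sample, in which a tamoxifen-activated Cre under the control of Pax7 switches on a fluorescent protein for good, so that labelled cells can later lose Pax7 and keep the label. From 12 weeks of age both groups spent 4 weeks in normocapnia (room air) or in hypercapnia (a chamber with 10% CO2), with tamoxifen given in the first part of that time, and cells were collected at 16 weeks. By the methods of the study the tibialis anterior and gastrocnemius had been injured with cardiotoxin, a toxin that destroys myofibers, 3 days earlier, whereas the sample labels mention no injury. The title of the table carries a tag of 40 hours that neither the labels nor the methods for these libraries explain, so the time between injury and collection is uncertain. Neither source says how many animals stand behind a library, so that p-values measure the spread between these libraries. By a chi-square of their reads over its degrees of freedom, HC1 with HC2 (24.6) and HC3 with HC4 (27.3) were much closer to each other than any other pair (105 to 528). They exceeded counting noise and were kept as separate libraries, as labelled, but whether either pair shares an animal cannot be told from these values. The comparison bears on whether cell cycle arrest genes differ after elevated CO2, in a study concerned with satellite cell activation, replication and senescence.

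Satellite cells are the stem cells of skeletal muscle, which rest outside the cell cycle, divide after injury and leave the cycle again when they differentiate or renew the resting pool. CDK inhibitors are the proteins that hold the cycle back. The Cip/Kip family (p21 from Cdkn1a, p27 from Cdkn1b, p57 from Cdkn1c) binds several cyclin-CDK complexes, while the INK4 family (p16 from Cdkn2a, p15 from Cdkn2b, p18 from Cdkn2c, p19 from Cdkn2d) blocks CDK4 and CDK6 and thereby keeps the retinoblastoma protein active. The p53 protein (Trp53) is a transcription factor held low by the ubiquitin ligase MDM2, and it switches on Cdkn1a, Ccng1 (cyclin G1) and Mdm2 itself, so that Mdm2 closes a negative feedback loop. Cdkn1a and Cdkn2a are widely used markers of senescence, Cdkn1b marks resting satellite cells, and Cdkn1c, an imprinted gene, is known for cell cycle exit during muscle differentiation.

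Some textbook targets of p53 among these genes are shown with the 250 bases upstream of their RefSeq start (build GRCm38.p6, read 5′ to 3′ on the strand of the gene), because their levels are set over that of Trp53 further on. Capitals mark matches to the p53 half-site, searched on both strands by its name alone as a 10-letter motif. Cdkn1a is at chr17:29090729-29090978 on the + strand, Mdm2 at chr10:117710759-117711008 on the - strand and Ccng1 at chr11:40755287-40755536 on the - strand.
Cdkn1a: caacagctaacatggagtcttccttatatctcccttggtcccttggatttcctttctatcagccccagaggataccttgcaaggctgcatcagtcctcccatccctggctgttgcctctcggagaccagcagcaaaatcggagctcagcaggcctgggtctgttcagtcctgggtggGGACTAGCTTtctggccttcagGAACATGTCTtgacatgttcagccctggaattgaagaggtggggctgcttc
Mdm2: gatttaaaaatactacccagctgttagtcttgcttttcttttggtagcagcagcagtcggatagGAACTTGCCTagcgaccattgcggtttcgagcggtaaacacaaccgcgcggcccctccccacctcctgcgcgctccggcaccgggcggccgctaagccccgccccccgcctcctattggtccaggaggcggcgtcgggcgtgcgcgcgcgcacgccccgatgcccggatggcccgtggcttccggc
Ccng1: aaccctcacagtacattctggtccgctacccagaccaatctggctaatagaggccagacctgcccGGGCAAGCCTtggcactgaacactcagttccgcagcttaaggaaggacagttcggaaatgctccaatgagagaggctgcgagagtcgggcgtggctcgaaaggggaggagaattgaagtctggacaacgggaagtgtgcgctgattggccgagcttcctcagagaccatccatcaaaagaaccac
Windows from 250 bases before to 50 after a start were available for 9 members, with 12 windows in all, and a half-site was found in 5 of these 12 (1 each of Cdkn1a, Mdm2, Ccng1, Trp53 and Cdkn2d), against 8.36% of all 32851 windows. In the Cdkn1a window shown, 2 half-sites lay within 13 bases of each other, starting 73 and 51 bases before that RefSeq start. Such an arrangement was found in 24 of all windows. Cdkn1a has a further RefSeq start, whose window (chr17:29093519-29093818) held no half-site. The first base of the half-site lay 186 bases before the start in Mdm2 and 185 bases before it in Ccng1. These are matches of letters, with no binding measured here.

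Values are RPM, reads scaled to the total reads of the panel, with 1 amplicon for each gene, so a gene can be compared between libraries but not with another gene. Libraries held 14527445 (NC3) to 23388710 (NC2) reads, and 3 reads, taken here as the lowest count to be read as a level, correspond to 0.128 to 0.207 RPM. Among the normocapnia libraries, NC1 and NC3 stood apart. NC1 had the highest mean log2(RPM + 1) over 14 satellite cell markers (6.97, against 3.11 to 5.74 in the other libraries) and Pax7 at 268 RPM, while NC3 had the lowest mean (3.11) and Pax7 at 4.34 RPM. In the label check, all 14 satellite cell markers were in the table and 13 had an average of 1 RPM or more, led by Sdc4 (429 to 781 RPM) and Des (35.9 to 1193 RPM), with a summed level of 611 to 4441 RPM in normocapnia and 813 to 1718 RPM in hypercapnia. The macrophage gene Lyz2 reached 8354 to 29108 RPM and Cd68 729 to 2185 RPM, so macrophage transcripts were present in each library of the sort. Of 13 macrophage markers 2 (Adgre1 and Ms4a7) were called by the test described below, of 10 neutrophil markers 1 (Mmp8) and of 15 genes induced by tissue dissociation 1 (Atf3), all 4 higher in hypercapnia, while no satellite cell marker was called and 4.75% of genes averaging 1 RPM or more were. The other markers of these cells did not all point the same way, since 4 of 13 macrophage markers and 3 of 10 neutrophil markers had a lower mean in hypercapnia. The part of other cells and of dissociation in the results was not tested. In bulk RNA, fewer cells of a type and less RNA per cell cannot be told apart. The leading genes of the other cell lists were Dcn and Gsn (fibro-adipogenic cells) at 169 to 1356 and 353 to 987 RPM, Tnnt3 and Mylpf (myofibers) at 55.0 to 1755 and 77.2 to 1580 RPM, Pecam1 and Cdh5 (endothelium) at 26.2 to 317 and 8.04 to 81.7 RPM, Csf3r and S100a9 (neutrophils) at 34.7 to 118 and 5.28 to 80.9 RPM, Cd79b and Cd4 (lymphocytes) at 7.14 to 15.8 and 0.688 to 6.63 RPM, and Alas2 and Slc4a1 (red blood cells) at 0.201 to 15.4 and 0 to 3.18 RPM. NC1, NC2, HC1 and HC2 held Xist at 445 to 701 RPM with no Ddx3y reads, while NC3, HC3 and HC4 held Ddx3y at 103 to 206 RPM with Xist at or below 0.125 RPM. By these genes the libraries are called female and male below. NC3 was thus the single male library of normocapnia, and a property of NC3 and an effect limited to males cannot be told apart.

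None of the 10 genes passed the test between hypercapnia and normocapnia. The test was limma on log2(RPM + 1) over all 23930 genes, with a gene called where its unadjusted p was below 0.05 and its levels differed more than 1.5-fold. Of all genes, 2.57% were called (1.43% higher and 1.14% lower in hypercapnia), 4.66% had an unadjusted p under 0.05, and 0 had an adjusted p under 0.05. Among the members, 0 of 10 had an unadjusted p under 0.05, and in 0 of 10 did the groups stand apart without overlap, which 5.38% of all genes with reads and 7.72% of genes averaging 1 RPM or more did. Of the members, 6 had a higher and 4 a lower mean log2(RPM + 1) in hypercapnia. Cdkn1b was higher on this scale only, since its mean RPM was 28.2 in normocapnia and 23.4 in hypercapnia. The median log2 fold change was 0.14, close to the median of 0.16 over 12504 genes with an average of 1 RPM or more. Of the members, 8 had such an average, Cdkn2a and Cdkn2b being below it. A quasi-likelihood test on recovered reads (edgeR with a filter on low genes) called 0 of the 8 members it kept, against 6.03% of its 13293 genes (294 higher and 508 lower, against 343 higher and 272 lower with limma), with 0 genes past adjustment. DESeq2 called 0 of the 9 members for which it gave a p, against 6.25% of genes, with 29 genes past adjustment. The intervals were wide, and for each of the 10 genes they held a change of 1.5-fold in at least one direction.

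**Figure D1:**
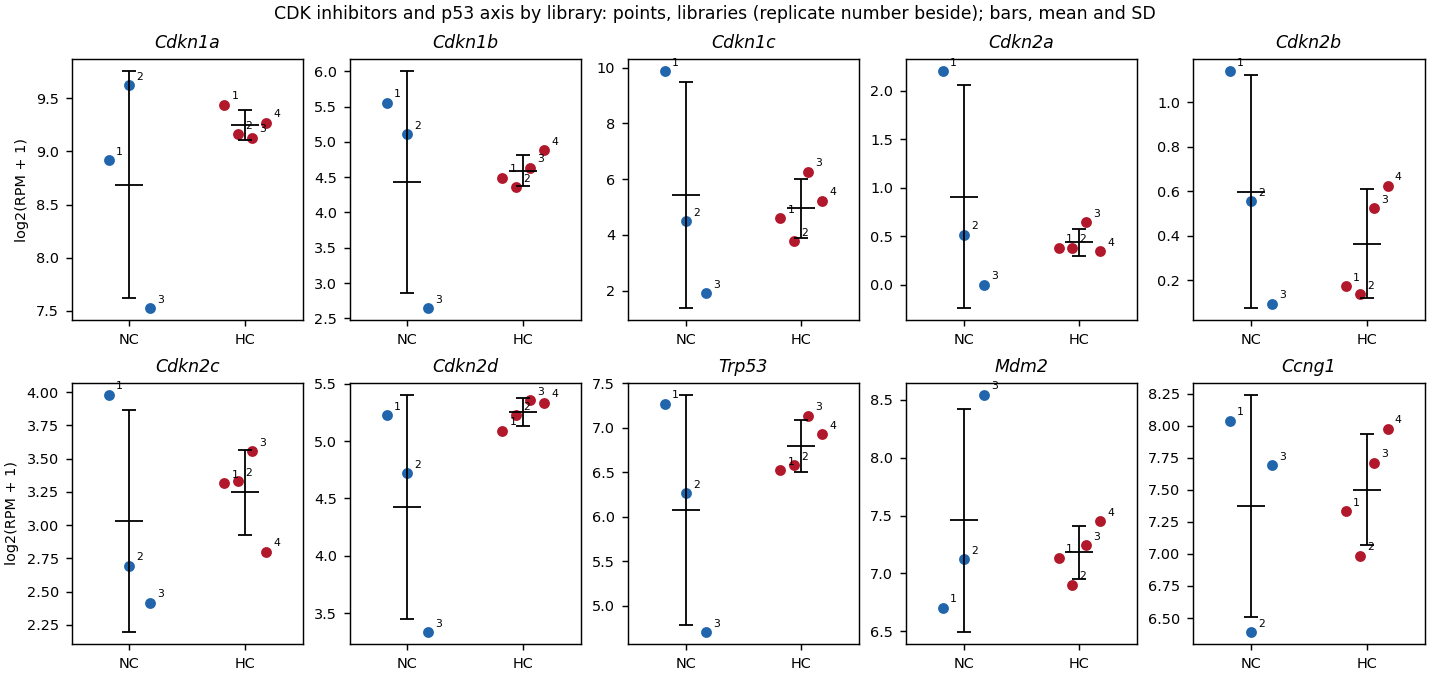
Level of each of the 10 genes in each library, as log2(RPM + 1), with normocapnia (NC) in blue, hypercapnia (HC) in red, the replicate number beside each point, and bars for the mean and SD. The normocapnia points are spread more widely than the hypercapnia points in all 10 panels, and NC3 is the lowest normocapnia library in 8 of them, Mdm2 and Ccng1 being the exceptions.

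Cdkn1a, which encodes p21, stood at 482, 787 and 183 RPM in the normocapnia libraries NC1 to NC3 and at 694, 572, 558 and 616 RPM in the hypercapnia libraries HC1 to HC4. The hypercapnia libraries all lay between NC1 and NC2, and NC3 was the low library. Its log2 fold change was 0.56 ± 0.50 (SE), with a 95% interval of -0.68 to 1.81 and an adjusted limma p of 0.915. Without NC3 it was -0.019.

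Cdkn1b, which encodes p27, stood at 46.0, 33.5 and 5.23 RPM in normocapnia and at 21.5, 19.5, 23.9 and 28.5 RPM in hypercapnia. The 4 hypercapnia libraries lay below NC1 and NC2 and above NC3. The log2 fold change was 0.16 ± 0.73 (SE), with a 95% interval of -1.67 to 1.99 and an adjusted limma p of 1. Without NC3 it was -0.74, and Cdkn1b was called as lower in hypercapnia. That fit called 2.57% of all genes.

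Cdkn1c, which encodes p57, stood at 939, 21.5 and 2.75 RPM in normocapnia, a 341-fold range within 1 group, and at 23.1, 12.6, 76.2 and 36.2 RPM in hypercapnia. Its log2 SD in normocapnia (4.07) ranked 5 among 12504 genes. Between the groups its log2 fold change was -0.47 ± 1.96 (SE), with a 95% interval of -5.37 to 4.43 and an adjusted limma p of 1, and NC1 alone set its sign, since it was 1.76 without NC1 and -2.22 without NC3. Without a filter on low genes edgeR called Cdkn1c as lower (log2 fold change -2.93), where it called 4.38% of genes.

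Among the INK4 genes, Cdkn2a and Cdkn2b had few reads. Cdkn2a, whose locus encodes p16 and, in another reading frame, p19ARF, had 81, 10 and 0 reads in normocapnia (3.61, 0.428 and 0 RPM) and 7, 6, 9 and 4 reads in hypercapnia (0.300, 0.301, 0.562 and 0.271 RPM). Which of the transcripts its amplicon covers is not given in the sources used here. At 0 reads, NC3 had an exact Poisson 95% interval that ended at 0.254 RPM, and 3 reads, the floor used here, would be 0.207 RPM. In NC1 the interval ran from 2.87 to 4.49 RPM, above the intervals of the other 6 libraries, the highest of which ended at 1.07 RPM. These intervals cover counting error only. Cdkn2b, the neighbouring gene, which encodes p15, had 27, 11 and 1 reads in normocapnia (1.20, 0.470 and 0.069 RPM) and 3, 2, 7 and 8 reads in hypercapnia (0.128, 0.1, 0.437 and 0.542 RPM). For both genes NC1 was the highest and NC3 the lowest library. The log2 fold changes, which at such levels depend on the pseudocount, were -0.47 ± 0.54 for Cdkn2a and -0.23 ± 0.28 for Cdkn2b (SE, limma, adjusted p = 0.915 for both), and without NC1 they were 0.18 and 0.039.

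Cdkn2c, which encodes p18, stood at 14.8, 5.47 and 4.34 RPM in normocapnia and at 8.95, 9.05, 10.7 and 5.96 RPM in hypercapnia. The hypercapnia libraries lay above NC2 and NC3 and below NC1. For Cdkn2c the log2 fold change was 0.22 ± 0.42 (SE), with a 95% interval of -0.84 to 1.28 and an adjusted limma p of 0.964, and without NC1 it was 0.69 and Cdkn2c was called as higher, where 8.32% of all genes were called.

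Cdkn2d, which encodes p19 of the INK4 family, had the smallest p among the 10 genes. It stood at 36.4, 25.4 and 9.09 RPM in normocapnia and at 33.0, 36.4, 39.99 and 39.4 RPM in hypercapnia, so that 2 hypercapnia libraries lay above all 3 normocapnia libraries. The log2 fold change was 0.82 ± 0.46 (SE), with a 95% interval of -0.31 to 1.96 and an adjusted limma p of 0.915. It was called as higher after quantile normalization (0.62), after median-of-ratios scaling (0.69) and without NC1 (1.22), where limma called 2.9%, 2.55% and 8.32% of all genes. Without NC3 the log2 fold change was 0.28.

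**Figure D2:**
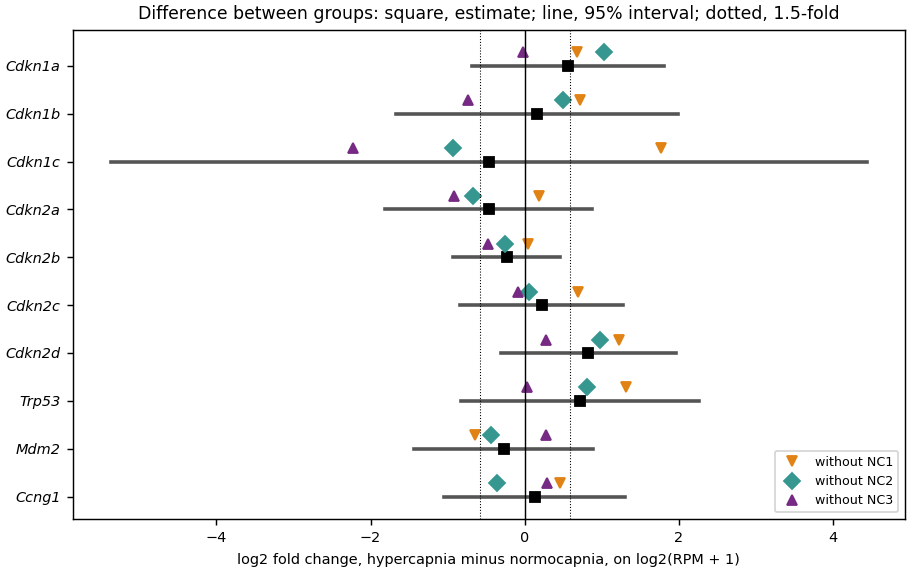
Log2 fold change of each gene, hypercapnia minus normocapnia, on the log2(RPM + 1) scale (squares) with its 95% limma interval (lines), and the values without NC1, NC2 or NC3 (coloured marks). All 10 intervals cross 0, and without NC3 the values of Cdkn1a, Cdkn1b, Cdkn2c and Mdm2 change sign.

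Trp53, which encodes p53, stood at 154, 75.9 and 25.1 RPM in normocapnia and at 91.1, 94.9, 140 and 121 RPM in hypercapnia. All 4 hypercapnia libraries lay between NC1 and NC2. The log2 fold change was 0.71 ± 0.62 (SE), with a 95% interval of -0.83 to 2.26 and an adjusted limma p of 0.915. It was 1.31 without NC1 and 0.026 without NC3.

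Mdm2 ran the other way in NC3. It stood at 103, 139 and 373 RPM in normocapnia and at 140, 118, 151 and 174 RPM in hypercapnia, and NC3 was the highest of the 7 libraries for Mdm2 and the lowest for Trp53. For Mdm2 the log2 fold change was -0.27 ± 0.46 (SE), with a 95% interval of -1.43 to 0.88 and an adjusted limma p of 0.948. Without NC3 it was 0.27. Ccng1, which encodes cyclin G1, stood at 262, 82.9 and 206 RPM in normocapnia and at 160, 126, 208 and 251 RPM in hypercapnia, with NC2 as its lowest library. Its log2 fold change was 0.13 ± 0.47 (SE), with a 95% interval of -1.04 to 1.30 and an adjusted limma p of 1. Without NC2 it was -0.36.

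Ratios of 2 genes within a library do not depend on the scaling of that library, although their size reflects amplicons as well as transcripts. The ratio of Mdm2 to Trp53 was 0.672, 1.83 and 14.9 in the normocapnia libraries and 1.53, 1.25, 1.08 and 1.44 in the hypercapnia libraries. The 4 hypercapnia libraries thus lay between NC1 and NC2, and NC3 was far above. The ratio of Cdkn1a to Trp53 was 3.14, 10.4 and 7.30 in normocapnia and 7.62, 6.03, 3.99 and 5.09 in hypercapnia, and here NC3 lay within the range of the others. The ratio of Cdkn1a to Mdm2 was 4.67, 5.68 and 0.491 in normocapnia and 4.97, 4.83, 3.71 and 3.54 in hypercapnia, and NC3 was far below. The ratio of Ccng1 to Trp53 was 1.70, 1.09 and 8.21 in normocapnia and 1.76, 1.32, 1.49 and 2.07 in hypercapnia. In NC3 the p53 targets thus did not share 1 direction, since relative to the other libraries Mdm2 was high, Ccng1 was within their range and Cdkn1a was low. The ratio of Cdkn1c to Cdkn1b was 20.4, 0.644 and 0.526 in normocapnia and 1.07, 0.645, 3.19 and 1.27 in hypercapnia. None of these ratios separated the groups.

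**Figure D3:**
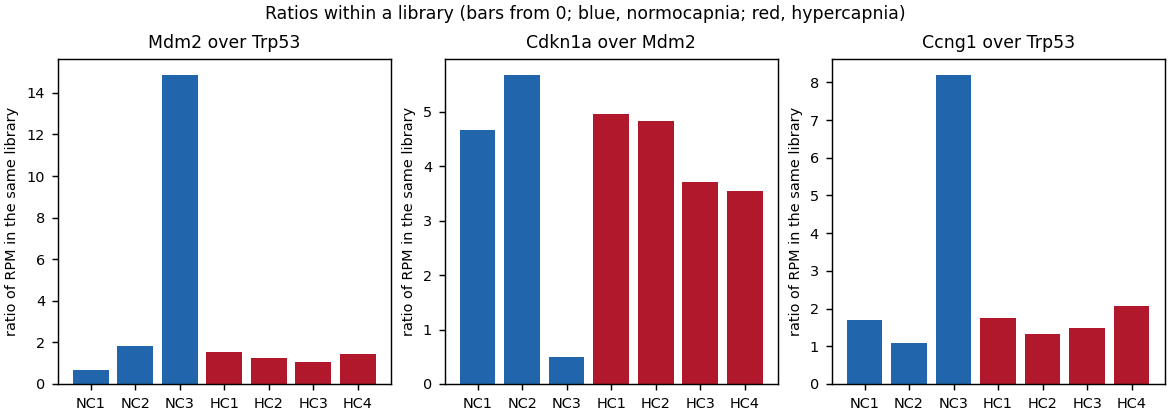
Ratios of RPM within each library for Mdm2 over Trp53, Cdkn1a over Mdm2 and Ccng1 over Trp53, with bars from 0, normocapnia in blue and hypercapnia in red. NC3 stands at 14.9, 0.491 and 8.21, outside the range of the other 6 libraries in these 3 ratios, while for Cdkn1a over Trp53 (not plotted) it lies within that range at 7.30.

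The spread among normocapnia libraries was larger than that among hypercapnia libraries for all 10 genes, as it was for 81.1% of genes with an average of 1 RPM or more. The log2 SD of Cdkn1a was 1.07 in normocapnia and 0.14 in hypercapnia, that of Cdkn1b 1.57 and 0.22, that of Cdkn2d 0.98 and 0.12, that of Trp53 1.29 and 0.29, and that of Mdm2 0.97 and 0.23. Among normocapnia libraries NC3 was the lowest for 8 of 10 members (57.3% of all genes at 1 RPM) and NC1 the highest for 8 of 10 (51.8%). All 4 hypercapnia values lay inside the normocapnia range for 9 of 10 members, Cdkn2d being the exception, against 41.8% of genes. A wide normocapnia group was therefore a property of most genes and not of these members alone.

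Within the female libraries (NC1 and NC2 against HC1 and HC2), 1 of 10 members was called, against 4.24% of genes. This was Cdkn1b, which was lower in hypercapnia (log2 fold change -0.90). The hypercapnia side of this fit was HC1 and HC2, the closest pair noted above, and whether they share an animal cannot be told. Within the male libraries (NC3 against HC3 and HC4), 5 members were called, against 20.8% of genes. Of these, 4 were higher in hypercapnia (17.1% of genes), namely Cdkn1a (1.68), Cdkn1b (2.12), Cdkn2d (2.01) and Trp53 (2.33), and Mdm2 was lower (-1.20), as were 3.71% of genes. The male fit rests on NC3 alone for normocapnia, and its spread comes from HC3 and HC4, the pair of libraries noted above as much closer to each other than most (SE of 0.017 for Cdkn2d), so its calls hold no information on the spread among male normocapnia animals. After adjustment 0 genes passed within either sex. The difference between the male and the female log2 fold change (limma interaction over all genes) had an unadjusted p under 0.05 for 6 of 10 members, namely Cdkn1a, Cdkn1b, Cdkn2b, Cdkn2d, Trp53 and Mdm2, as it did for 21.2% of all genes. It passed adjustment for 1 member, Cdkn1b (3.02 ± 0.32, SE, limma, adjusted p = 0.0456), and for 3.2% of all genes, with the same limit, since NC3 stands alone there too. With sex as a term in the model, 0 members were called, against 5.06% of genes. The shares of genes in this paragraph are over all 23930 genes. In the fit of all libraries that share was 2.57%, against 4.75% of genes averaging 1 RPM or more, as 8 of the 10 members do. For the fits by sex the share among such genes was not computed. This use of sex was chosen after the data had been seen.

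Levels of Cdkn1c and Trp53 moved with marker lists across the libraries. Each of the 10 genes was correlated with the mean log2(RPM + 1) of the satellite cell, macrophage and proliferation lists, 30 relations in all over 7 libraries, with two-sided exact permutation tests adjusted over the 30. The genes and the lists come from the same libraries and the same scaling. Cdkn1c was correlated with the satellite cell markers (Pearson r = 0.95, permutation p = 0.000595, adjusted p = 0.00893; Spearman rho = 0.96, permutation p = 0.00278, adjusted p = 0.0208). Without NC1 and HC3, the libraries farthest from the median of the markers, r was 0.81 (exact permutation p = 0.108 over 5 libraries), so the test no longer passed. Trp53 was correlated with the proliferation list, which held 17 genes of DNA replication and mitosis (r = 0.88, permutation p = 0.000397, adjusted p = 0.00893; rho = 0.96, permutation p = 0.00278, adjusted p = 0.0208). Without NC2 and NC3 its r was 0.97 (exact permutation p = 0.0333). Both lists put the 7 libraries in the same order, so each gene has the same rho with both, and by rank the satellite cell markers and proliferation cannot be told apart. By Pearson's r, Trp53 with the satellite cell markers (r = 0.81) and Cdkn1c with the proliferation list (r = 0.71) did not pass (permutation p = 0.0238 and 0.0571, adjusted p = 0.102 and 0.171). Without NC2 and NC3 the r of Cdkn1c with the proliferation list was 0.90 (exact permutation p = 0.0167 over 5 libraries, not adjusted). Without NC1 and HC3 that of Trp53 with the satellite cell markers was 0.83 (exact permutation p = 0.1). Of the 30 relations, 2 passed adjustment by Pearson's r, and by rank the same 2 genes passed with the shared order of the lists. The share of all genes related as closely to these lists was not computed. The relations can therefore not be called particular to Cdkn1c and Trp53. None of the relations with macrophage markers passed. With 4 female and 3 male libraries, too few were left to repeat these relations within a sex.

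**Figure D4:**
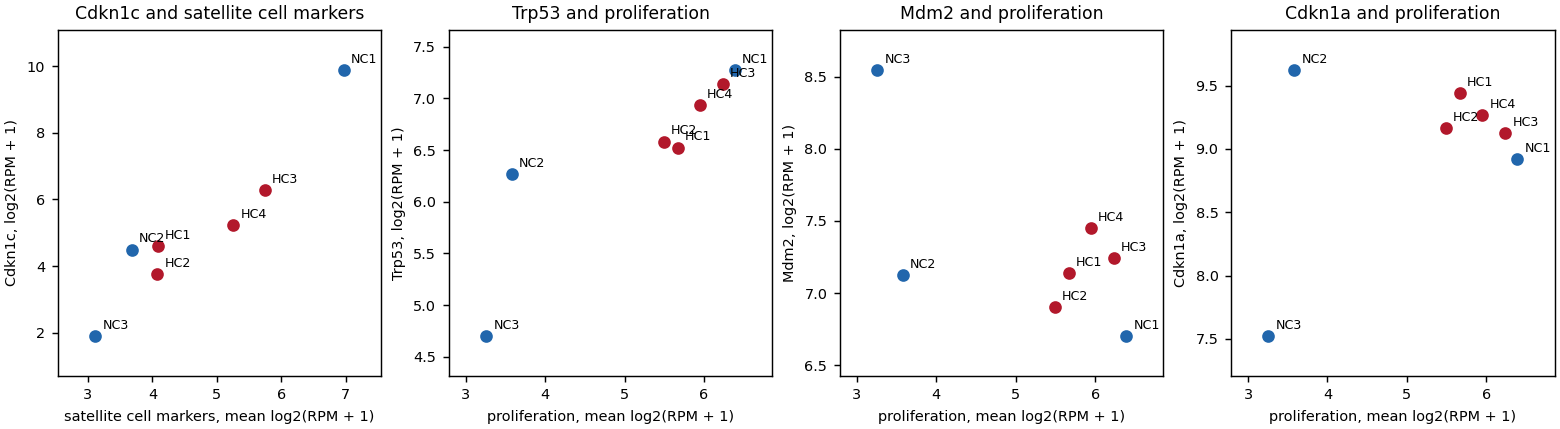
Level of a gene, as log2(RPM + 1), against the mean log2(RPM + 1) of a marker list, 1 point for each library, normocapnia in blue and hypercapnia in red. Cdkn1c follows the satellite cell markers from NC3 to NC1 and Trp53 the proliferation list, whereas Mdm2 and Cdkn1a are set apart in NC3.

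The proliferation list itself had a mean of 6.39, 3.58 and 3.26 in the normocapnia libraries and of 5.67, 5.49, 6.24 and 5.95 in the hypercapnia libraries. All 17 of its genes had a higher mean in hypercapnia, with a median log2 fold change of 1.60, and 0 were called. Among its genes, Rrm2 ran from 21.3 to 536 RPM and Mcm7 from 8.67 to 305 RPM. The NC2 and NC3 libraries were low and NC1 lay above all 4 hypercapnia libraries. The part of proliferation and of satellite cell content in the differences of Trp53 and Cdkn1c was not tested.

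The genes whose deviations over the 7 libraries were nearest to those of a member, by root mean square difference of log2(RPM + 1) among the 8229 genes with an average of 10 RPM or more, were as follows. Nearest to Cdkn1c were Actc1 (cardiac actin, also made by regenerating muscle; 0.34) and H19 (an imprinted non-coding RNA; 0.45), both of which had their highest level in NC1 and their lowest in NC3. Nearest to Trp53 were Mtbp (0.08), which encodes an MDM2-binding protein, and Ccdc15 (0.09). Nearest to Mdm2 were Ddit3 (a transcription factor of the integrated stress response; 0.14) and Dapp1 (0.16), both highest in NC3, where Ddit3 stood at 63.3 RPM against 15.2 to 22.2 RPM elsewhere. Nearest to Cdkn1b were Myc (0.13) and Zfp787 (0.14), nearest to Cdkn1a H2-K2 (0.11) and Brd2 (0.11), nearest to Cdkn2d Ptcd2 (0.07), and nearest to Ccng1 Mrpl38 (0.13) and Mmachc (0.14). With 7 libraries these are descriptions and carry no test.

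The other genes of the pathway were taken from 6 lists. Their called genes are read against 4.75% of genes with an average of 1 RPM or more. Shares given for the alternative fits are over all genes that a fit tested, for which the reported fit gave 2.57%. Groups did not overlap for 3 of 34 p53 targets, 2 of 14 p53 regulators, 1 of 7 p27 turnover genes and 1 of 9 INK4 repressors. The share among genes averaging 1 RPM or more was 7.72%. Of 34 p53 targets, 2 were called, both higher in hypercapnia, and 28 had a higher and 6 a lower mean, with a median log2 fold change of 0.43, beside 7765 higher and 4739 lower and a median of 0.16 over the 12504 genes averaging 1 RPM or more. Zmat3, an RNA-binding protein, stood at 23.7, 14.5 and 19.5 RPM in normocapnia and at 32.4, 38.2, 34.5 and 32.9 RPM in hypercapnia, with no overlap (log2 fold change 0.83 ± 0.17, SE, limma, adjusted p = 0.686). Gdf15, a secreted stress cytokine, stood at 11.2, 25.4 and 13.1 RPM in normocapnia and at 34.6, 48.8, 42.2 and 35.95 RPM in hypercapnia, again with no overlap (1.31 ± 0.30, SE, limma, adjusted p = 0.766). Both were called in 19 of 20 alternative fits, the exception being the female libraries alone, with log2 fold changes of 0.65 to 0.99 for Zmat3 and 1.09 to 1.65 for Gdf15. The list held 6 called genes without NC1, 5 without NC2 and 4 without NC3, fits that called 8.32%, 5.04% and 2.57% of all genes, and all were higher in hypercapnia but 1 without NC3. It held 6 with sex as a term (5.06% of all genes) and 4 under the replicate block (598 genes called in all), all higher. The female libraries gave 2 higher and 2 lower (4.24%), with neither Zmat3 nor Gdf15 among them, and the male libraries 20 higher and 1 lower (20.8%).

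Of 14 regulators of p53 in the table, 1 was called. Sirt1, a deacetylase that acts on p53, stood at 11.2, 15.1 and 15.4 RPM in normocapnia and at 8.60, 7.04, 7.37 and 6.36 RPM in hypercapnia, lower in all 4 (log2 fold change -0.83 ± 0.14, SE, limma, adjusted p = 0.65). Sirt1 was called in 18 of 20 alternative fits, the exceptions being the female libraries alone (-0.67) and quantile normalization (-1.07), and the list held 5 called genes without NC1 (2 higher and 3 lower) and 2 without NC2, both lower, where 8.32% and 5.04% of all genes were called. It held 3, all lower, with edgeR (6.03%), with DESeq2 (6.25%) and with sex as a term (5.06%), 9 in the male libraries (5 higher and 4 lower, 20.8%) and 0 after quantile normalization (2.9%). Of 9 repressors of the INK4 locus, 1 was called, namely Bmi1, a Polycomb protein, at 42.3, 32.0 and 39.6 RPM in normocapnia and at 21.7, 20.9, 30.7 and 23.0 RPM in hypercapnia (-0.64 ± 0.17, SE, limma, adjusted p = 0.827). Bmi1 was lower in each hypercapnia library. Cdkn2a and Cdkn2b, genes that Polycomb proteins silence, had 11 reads or fewer in all libraries but NC1. A relation of their levels to Bmi1 was not tested. Bmi1 was called in 16 of 20 alternative fits, its call being lost without NC1 (-0.56), without HC2 (-0.58), in the male libraries alone (-0.56) and with a pseudocount of 5 RPM (-0.57). The list held 0 called genes without NC1 (8.32% of all genes) or HC2, 2 without NC2 (5.04%), of which 1 was higher, and 3 in the male libraries (20.8%), all higher. Of 7 genes of p27 turnover, 1 was called, namely Cul1, the scaffold of the ubiquitin ligase that marks p27, at 90.2, 69.7 and 122 RPM in normocapnia and at 49.6, 42.7, 76.6 and 55.7 RPM in hypercapnia (-0.73 ± 0.27, SE, limma, adjusted p = 0.915). Cul1 was called in 11 of 20 alternative fits, and its call was lost without NC1 (-0.74), NC3 (-0.52), HC1 (-0.68), HC2 (-0.61) or HC4 (-0.73). It was also lost with only genes averaging 1 RPM or more (-0.73), after median-of-ratios (-0.87) or quantile scaling (-0.74), and in the male libraries alone (-0.89). Without NC1 the list held 2 called genes, both higher in hypercapnia (Skp2 and Cks1b, 8.32% of all genes called), and the male libraries also gave 2, both higher (Skp2 and Ubac1, 20.8%), genes named here after their calls were seen. Leaving out 1 library gave 0 to 2 called genes.

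None of the 14 cyclins and CDKs and none of the 13 genes of the RB and E2F list were called. The median log2 fold change was 0.71 in the first list, where 12 genes had a higher mean in hypercapnia, and -0.05 in the second, where 6 did. The smallest p values belonged to Cdk6, the kinase that INK4 proteins block (68.1 to 77.0 RPM in normocapnia, 55.5 to 69.9 RPM in hypercapnia, log2 fold change -0.22 ± 0.10, SE, limma adjusted p = 0.915), and to E2f1, a factor that drives S phase entry (9.78 to 36.2 RPM in normocapnia, 38.9 to 59.4 RPM in hypercapnia, 1.11 ± 0.46, SE, limma adjusted p = 0.915). In the RB and E2F list 2 of 13 genes had levels that did not overlap between the groups, against 7.72% of genes averaging 1 RPM or more. They were E2f1 and, in the other direction, Rbl2, a relative of the retinoblastoma protein named here after its values were seen. Rbl2 stood at 33.5, 34.0 and 75.7 RPM in normocapnia and at 25.1, 27.2, 27.7 and 24.7 RPM in hypercapnia (log2 fold change -0.74 ± 0.31, SE, limma adjusted p = 0.915). E2f1 was called as higher in 11 of 20 alternative fits, among them edgeR, DESeq2 (0.97) and the fit without NC1 (1.47). Without NC1, 8 of the 14 cyclins and CDKs were called, all higher, and 4 of the 13 genes of the RB and E2F list, where 8.32% of all genes were called. The female libraries gave 1 lower and 0 (4.24% of all genes). With sex as a term the first list held 0 and the second 3, of which 2 were higher and 1 lower (5.06%). The RB and E2F calls went both ways, with 3 higher and 1 lower without NC1, 2 lower without NC2 (5.04% of all genes), where E2f1 was not called, and 1 higher and 1 lower with edgeR (6.03%) and with DESeq2 (6.25%). With limma, no gene of the 6 lists passed adjustment.

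**Figure D5:**
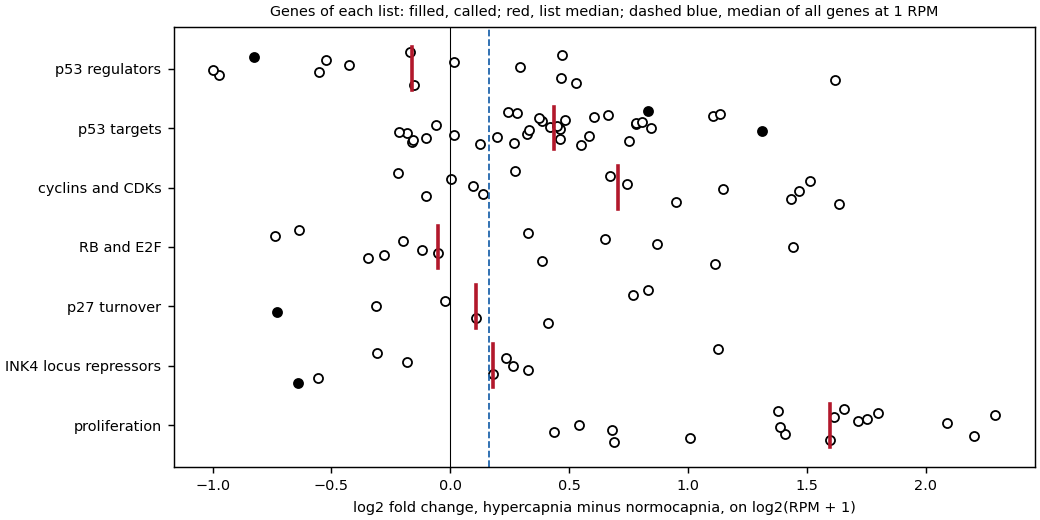
Log2 fold change, hypercapnia minus normocapnia, of each gene of the 6 pathway lists and of the proliferation list (circles, filled where called), with the list median in red and the median of all genes at 1 RPM (0.16) as a dashed line. The 5 filled circles are Sirt1, Zmat3, Gdf15, Cul1 and Bmi1, and no gene of the proliferation list is filled, although its median is 1.60.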

How the data were processed

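RNA of 3 normocapnia and 4 hypercapnia libraries was measured with a mouse transcriptome amplicon panel, 1 amplicon a gene, on an Ion S5 instrument. The authors deposited 1 table of RPM, reads scaled to the total assigned to the panel. Genome build and aligner were not given in the sources used here, while the submitters' processing notes name the Transcriptome Analysis Console, and promoter coordinates come from RefSeq (GRCm38.p6) alone. Whole reads were recovered from the RPM for 100% of values (tolerance 0.05 reads), and edgeR on them called 802 of 13293 genes. Groups were taken from the sample labels.

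On log2(RPM + 1), without a filter, limma 3.58.1 (R 4.3.3) compared the groups, and genes were called where the unadjusted p was below 0.05 and levels differed more than 1.5-fold, with Benjamini-Hochberg adjusted p beside. All p from limma, edgeR and DESeq2 are two-sided. Fold changes on this scale understate those of low genes. Where a gene is said to have a higher or lower mean, the mean is on this scale. Alternatives were a pseudocount of 0.1 or 5 RPM, only genes averaging 1 RPM or more, median-of-ratios and quantile scaling, a prior variance that follows the mean, edgeR 4.0.16 and DESeq2 1.42.0 on whole reads, a replicate block, leaving out each library and, added after seeing the data, sex. The scripts were tested on simulated data. Each library was counted as 1 sample, as labelled. All pairs differed by more than counting error, which does not show that they come from separate animals.

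The members and lists were chosen with earlier results of these data known. Named are the 10 members, called genes of the pathway lists (up to 5 a list, or the gene of smallest p), the 2 nearest genes of members averaging 10 RPM or more, the 2 most abundant marker genes of each cell list with Pax7, and Xist and Ddx3y. Rrm2, Mcm7, Adgre1, Ms4a7, Mmp8 and Atf3 fall outside this rule and were named after their values were seen. An item that this rule names is left out here.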

Additional observations from a re-analysis of the deposited data

Results flagged for a closer look

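Cdkn2a in HC3 stood at 0.562 RPM (9 reads), apart from the other 3 hypercapnia libraries at 0.271 to 0.301 RPM by more than Dixon's 95% critical value. Those libraries held 7, 6 and 4 reads, and the exact Poisson 95% intervals overlapped (0.257 to 1.07 RPM in HC3, with upper ends of 0.617 to 0.693 RPM in the others), so the gap is within counting error. Chance gives this in about 1 in 20 groups, and 10 were examined.

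For 3 of 10 members, both female hypercapnia libraries lay below both female normocapnia libraries while both male hypercapnia libraries lay above NC3, the single male normocapnia library, as for 13.1% of all genes with reads. The male minus female difference of the log2 fold change was 3.02 for Cdkn1b (limma interaction, adjusted p = 0.0456), 1.48 for Cdkn2a (adjusted p = 0.55) and 1.17 for Cdkn2b (adjusted p = 0.202). For Cdkn2a and Cdkn2b these values rest on 0 and 1 reads in NC3, and for all 3 genes a property of NC3 and of male animals cannot be told apart.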

How the results depend on the processing

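Of the 10 members, 0 were called in the reported fit, 1 with edgeR without a filter, 1 each after median-of-ratios and quantile scaling, 1 in female libraries and 5 in male libraries. Leaving out 1 library gave 0 to 2 (2 without NC1, 1 without NC3). The log2 fold change of Cdkn1b was -0.24 with DESeq2, -0.24 and -0.21 with edgeR without and with its filter, -0.11 after quantile scaling and -0.90 in female libraries. That of Cdkn2c was -0.18 after quantile scaling and -0.017 in female libraries. That of Ccng1 was -0.17 with DESeq2, -0.095 and -0.11 with edgeR without and with its filter, -0.016 after median-of-ratios scaling and -0.055 in female libraries. Female libraries gave -0.22 for Trp53 and 0.10 for Mdm2, and male libraries 3.84 for Cdkn1c, 0.49 for Cdkn2a and 0.48 for Cdkn2b. Leaving out 1 library gave -0.019 to 1.03 for Cdkn1a, -0.74 to 0.72 for Cdkn1b, -2.22 to 1.76 for Cdkn1c, -0.92 to 0.18 for Cdkn2a, -0.48 to 0.039 for Cdkn2b, -0.090 to 0.69 for Cdkn2c, 0.28 to 1.22 for Cdkn2d, 0.026 to 1.31 for Trp53, -0.65 to 0.27 for Mdm2 and -0.36 to 0.46 for Ccng1. Rank correlation turned the sign for Cdkn1a with satellite cell markers (-0.14) and proliferation (-0.14), and for Cdkn1b (-0.29), Cdkn2d (-0.18) and Trp53 (-0.36) with macrophage markers, while without NC2 and NC3 the r of Cdkn1a with proliferation was -0.68. Trp53 kept its sign in all alternatives except the female libraries, and over all members and alternatives 159 fold changes kept their sign and side of the threshold (by sign alone for Cdkn1c with DESeq2, which gave it no p), 27 changed sign and 10 kept their sign and became called. The cause of these changes was not tested.

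All genes called numbered 615 in the reported fit, 1304 with DESeq2, 1049 with edgeR without a filter, 1210 with sex as a term, 1015 in female and 4976 in male libraries, and 376 to 1990 when 1 library was left out. The share higher moved from 343 of 615 to 294 of 802 with edgeR. Over all genes averaging 1 RPM or more the median log2 fold change was 0.16 as deposited, -0.01 after quantile scaling and 0.045 after median-of-ratios scaling. Under the replicate block, 0 members and 598 genes were called, and the log2 fold change of Ccng1 was -0.031, while no call among the members changed. HC4 has no normocapnia library of its number and drops out of that estimate. Leaving out HC4 gave Ccng1 the same value (-0.031). Deviations of same-numbered libraries correlated at -0.35, 0.50 and -0.04, and those of NC2 with HC1 at 0.45. With HC1 and HC2 so close to each other, such values cannot show whether the numbers pair the libraries. By Xist and Ddx3y, same-numbered libraries of the 2 groups shared their sex. The edgeR filter removed Cdkn2a and Cdkn2b, which rest on 0 to 81 reads.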
